A study of Homo sapiens with 2 samples.

Results

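The Wnt genes examined here are the secreted WNT ligands, the Frizzled (FZD) receptors and the core components that carry or restrain the signal. They were taken by gene symbol, by a rule that uses no measured value although it was written with earlier results of these data known: all WNT, FZD and DVL genes, together with LRP5, LRP6, DKK1, DKK3, AXIN1, AXIN2, APC, CTNNB1, TCF7, TCF7L1, TCF7L2, LEF1, ZNRF3, RNF43 and GSK3B. This gave 47 of the 57736 genes in the deposited table. Expression was measured in A549, an established line of lung adenocarcinoma cells, labelled wild type and, per the series' design text, carrying a red fluorescent reporter of vimentin. The TGF-beta group was 1 library from cells brought into epithelial to mesenchymal transition (EMT) with transforming growth factor beta, and the untreated group was 1 library from cells given no treatment. Neither the dose and duration of TGF-beta nor whether the reporter line is a single clone is given in the sources used here. Each library was made from 10 ng of total RNA with the AmpliSeq Transcriptome kit, which reads a short amplified segment per targeted gene. Values written as after TGF-beta and in untreated cells are those of the single library of each group. The treatment therefore cannot be tested, and every difference below is one between these 2 libraries.

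In canonical Wnt signalling a WNT ligand bridges an FZD receptor and an LRP5 or LRP6 co-receptor, and DVL proteins then disable the complex of AXIN, APC and GSK3B that marks beta-catenin (CTNNB1) for destruction. Stabilised beta-catenin enters the nucleus and activates genes bound by TCF/LEF factors, among them the feedback inhibitors AXIN2, ZNRF3 and RNF43. In epithelial cells beta-catenin also links E-cadherin to the actin cytoskeleton, and Wnt and TGF-beta signals are both known to act in EMT.

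A single gene set the picture. ZNRF3, a membrane ubiquitin ligase that takes FZD receptors off the cell surface, had 2934 counts after TGF-beta and 329 in untreated cells. Nearly all of them lay in its first exon. Without ZNRF3 the other 46 genes summed to 512 counts after TGF-beta and 645 in untreated cells, a log2 ratio of 0.00 (95% counting interval -0.17 to 0.17). Within that sum the counts of the WNT ligands together were higher after TGF-beta. Those of the FZD receptors together were lower, a difference coming from 3 receptors. Those of the cytoplasmic transducers were 180 against 285, a log2 ratio of -0.33 (-0.60 to -0.05) with an interval that ends near equality. CTNNB1 alone gave 5 and 46 of these counts. On a scale set by ribosomal protein genes the medians of all 3 groups were instead higher. In such bulk RNA, fewer cells with a transcript and less of it per cell cannot be told apart. The plot of counts by gene shows how few counts most of these genes had.

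**Figure D1:**
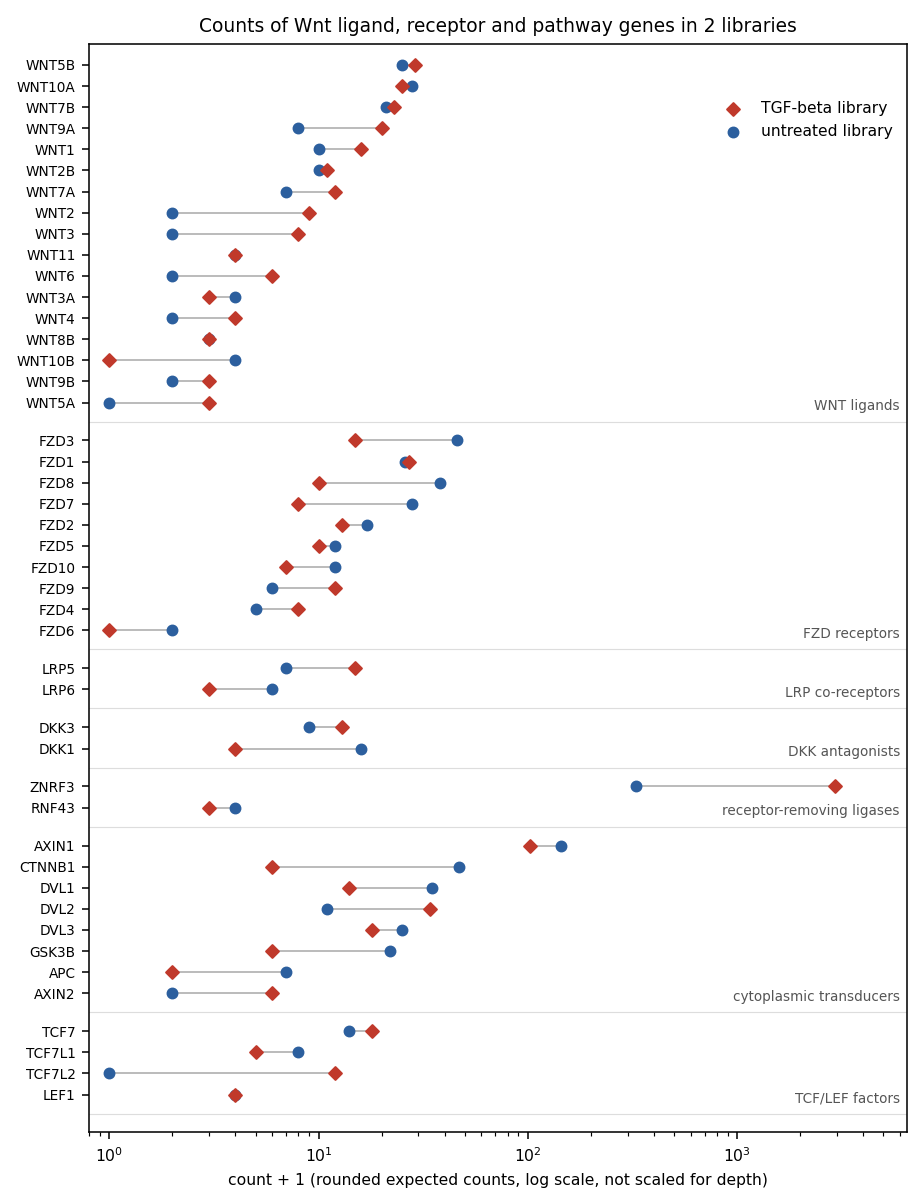
Rounded expected counts plus 1 (log scale, not scaled for depth) of the 45 Wnt genes with a count in either library, grouped by role, with a diamond for the TGF-beta library and a circle for the untreated library. ZNRF3 stands alone at 2934 against 329, and AXIN1 follows at 101 against 143.

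The exons that held most counts of CTNNB1 and TCF7L2 are printed, a choice made after the values were seen. CTNNB1 is the central transducer, and TCF7L2 had the largest ratio of the TCF/LEF factors. TCF7L2 passed the filter described below through the TGF-beta library alone and had to be higher. Capitals mark CG dinucleotides. The bases are the coding part of each exon, 5′ to 3′ on the plus strand, from GENCODE 29 transcripts on GRCh38. They were matched to the deposited hg19 exon by gene and exon length.
CTNNB1 (chr3:41225334-41225572): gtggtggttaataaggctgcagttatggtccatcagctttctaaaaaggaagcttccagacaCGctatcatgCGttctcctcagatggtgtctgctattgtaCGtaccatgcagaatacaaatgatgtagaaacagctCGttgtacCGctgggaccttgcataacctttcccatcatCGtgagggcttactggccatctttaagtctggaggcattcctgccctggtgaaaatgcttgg
TCF7L2 (chr10:113150998-113151123): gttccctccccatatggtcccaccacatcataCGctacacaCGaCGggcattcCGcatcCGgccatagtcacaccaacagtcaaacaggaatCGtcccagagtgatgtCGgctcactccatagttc
The CTNNB1 segment is 47.3% G or C over 239 bases with 6 CG dinucleotides, and the TCF7L2 segment is 54.8% over 126 bases with 7.

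Counts per gene were rounded expected counts, and log2 ratios compare TMM-scaled counts per 1e+06 scaled counts (CPM) of the TGF-beta library with those of the untreated library. After scaling, equal counts correspond to a log2 ratio of 0.34. Intervals are exact 95% Clopper-Pearson intervals given the summed count. They and the floor of 3 counts that replaces a 0 cover counting error only, since reads amplified by PCR without molecular identifiers are not separate molecules. A gene entered with at least 5 CPM in either library, and no ratio was given where both counts were 3 or fewer. Of the 47 genes, 38 passed the filter and 35 had a ratio. WNT11, WNT4 and LEF1 passed with 3 counts or fewer in both libraries. Of the 9 below the filter, WNT16 and WNT8A had 0 counts in both libraries, which at the floor of 3 counts allows up to 5.31 CPM after TGF-beta and 4.21 CPM in untreated cells (exact 95% Poisson intervals end at 6.53 and 5.17 CPM), and WNT3A, WNT5A, WNT8B, WNT9B, WNT10B, FZD6 and RNF43 had 3 or fewer in each.

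Among the 35 Wnt genes with a ratio, 13 were at least 2-fold higher after TGF-beta, against 21.3% of the 14067 genes with a ratio, and 8 were at least 2-fold lower, against 29.2%. Their median log2 ratio was 0.47 (quartiles -0.76 and 1.52), beside -0.08 over the 14067 genes. Counting intervals lay wholly above equality for 7 of the 35, against 10.9% of the 14067, and wholly below it for 7, against 18.4%. The tally leans on sparse genes. WNT2, WNT3, WNT6, AXIN2 and TCF7L2 passed the filter after TGF-beta alone, so they had to be higher, and APC and LRP6 passed in untreated cells alone. Among the 28 genes that passed in both libraries 8 were higher (28.6%, against 13.7% of all genes under that rule) and 7 lower (25%, against 19.7%). Among the 21 with at least 20 CPM in a library 5 were higher, against 18.5% of all such genes, and 7 lower, against 36.0%. On a scale set by the ribosomal protein genes, tried only after these values were seen, every log2 ratio moves up by 3.51 and the tally becomes 34 higher and 0 lower, with 90.3% of all genes higher. Directions below are relative to most other genes.

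**Figure D2:**
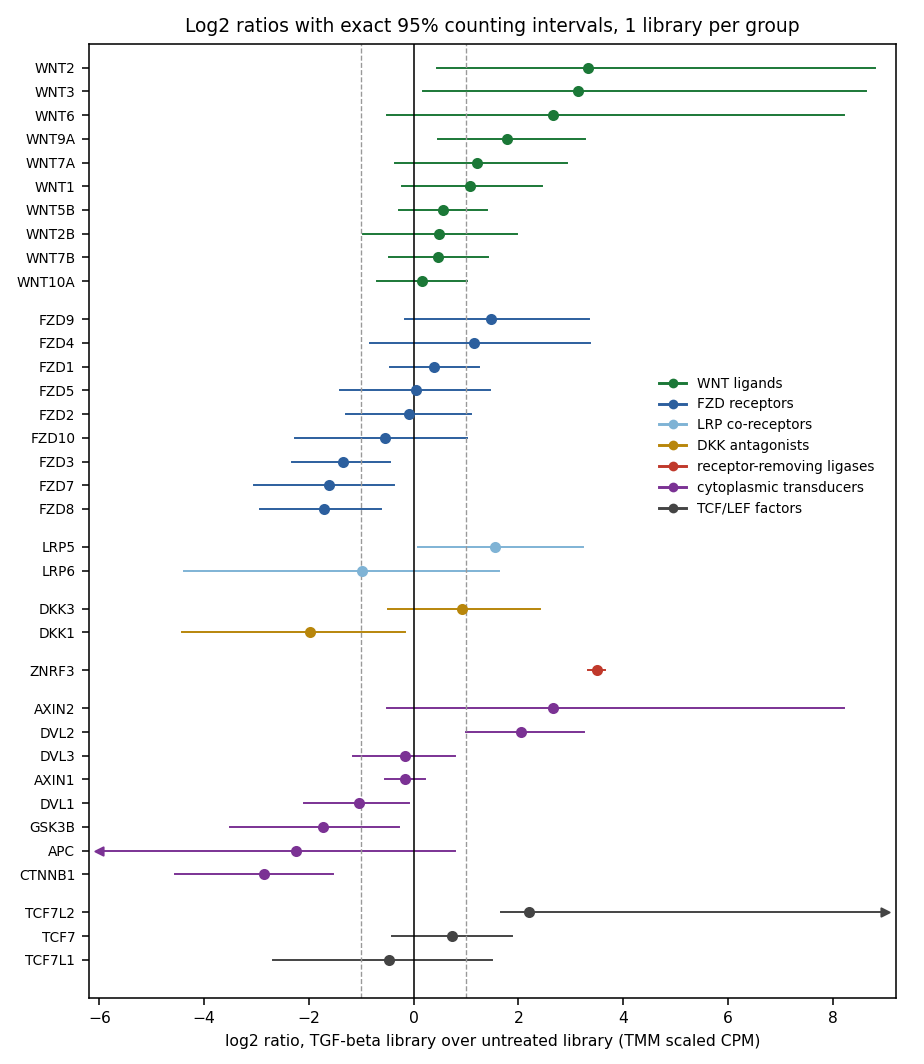
Log2 ratio (TGF-beta over untreated) for the 35 Wnt genes with a ratio (points) with exact 95% counting intervals (lines, arrowheads where they leave the axis), by role, with dashed lines at 2-fold. All 10 WNT ligands with a ratio sit to the right of 0, although WNT10A moves to -0.05 with DESeq2 size factors, and CTNNB1 has the lowest value of the 35 genes, -2.87.

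Depth, ribosomal protein genes and cell type markers were also read from both libraries. The TGF-beta library held 597133 rounded counts and the untreated library 674784, and 1965 and 3157 genes reached 20 counts. Ribosomal protein genes were far lower after TGF-beta, with 65 of 76 at least 2-fold lower, 3 higher and a median of -3.23. Of 6 mesenchymal markers with a ratio, 4 were at least 2-fold lower (66.7%, against 29.2% of all genes) and 0 higher (against 21.3%). This was so although the library is labelled as EMT, and VIM (vimentin) had 56 counts against 452. Epithelial and A549 markers gave 3 higher and 6 lower of 13, with KRT7 at 32 counts against 179 and CDH1, which encodes E-cadherin, at 4 against 1. Fibroblast markers summed to 414 counts after TGF-beta and 267 in untreated cells, of which COL1A1 gave 356 and 196 and LUM 0 in both. Leukocyte markers summed to 16 and 51 with LYZ at 0 in both. Of the 6 with a ratio 3 were lower (50%, against 29.2% of all genes) and 1 higher (16.7%, against 21.3%). The lower ones were CD68 at 2 against 17, CSF1R at 2 against 12 and CD14 at 0 against 10. All 3 passed the filter through the untreated library alone and had to be lower. Endothelial markers summed to 38 and 34. Alveolar markers summed to 19 and 23. The part of any of these in the Wnt gene differences was not tested.

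WNT ligands are secreted lipid-modified glycoproteins that start the signal. Of 19 ligand genes, 10 had a ratio, 6 of them at least 2-fold higher after TGF-beta and 0 lower. WNT2, WNT3 and WNT6 passed the filter through the TGF-beta library alone and had to be higher, so the 10 give no measure of the family. Of the 7 ligands that passed in both libraries 3 were higher and 0 lower, with a median of 0.56, beside 13.7% higher, 19.7% lower and a median of 0.01 among all genes that passed in both. Over all 19 genes the ligands summed to 163 counts after TGF-beta and 118 in untreated cells, a log2 ratio of 0.80 (0.45 to 1.16). The number of the 10 ligands past 2-fold was 4 with DESeq2 size factors. WNT9A was the ligand with the best supported difference, at 19 counts after TGF-beta against 7 in untreated cells, 33.6 and 9.82 CPM, and a log2 ratio of 1.78 (0.46 to 3.27). Its counts were higher both inside its leading exon block and outside it, where 8 counts stood against 2.

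WNT2 and WNT3 had very few counts in untreated cells. WNT2 had 8 counts after TGF-beta and 1 in untreated cells, a log2 ratio of 3.34 (0.44 to 8.81). WNT3 had 7 against 1 and a log2 ratio of 3.14 (0.18 to 8.64). Both intervals are very wide and begin close to equality. WNT1, the founding ligand of the family and a canonical activator, had 15 against 9 (1.07, -0.21 to 2.45), WNT7A had 11 against 6 (1.21, -0.35 to 2.93) and WNT6 had 5 against 1 (2.66, -0.50 to 8.22). For these ligands a difference was not detectable at this depth.

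The 3 ligand genes with the most counts, WNT5B, WNT10A and WNT7B, were within 2-fold. WNT5B, a ligand mostly linked to beta-catenin-independent signalling, had 28 counts against 24, a log2 ratio of 0.56 (-0.28 to 1.41). WNT10A had 24 against 27 (0.17, -0.69 to 1.01) and WNT7B, a ligand of the developing lung epithelium, had 22 against 20 (0.47, -0.47 to 1.42). WNT2B had 10 against 9 (0.49, -0.97 to 1.96), and its leading exon block overlaps exons of ST7L on the opposite strand. WNT5A, the ligand most often tied to EMT and cell migration, had 2 counts after TGF-beta and 0 in untreated cells, too few for a ratio.

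FZD receptors are membrane-spanning proteins that bind WNT ligands through a cysteine-rich domain. Of 10 genes 9 had a ratio. After TGF-beta 2 were at least 2-fold higher (22.2%, against 21.3% of all genes) and 3 at least 2-fold lower (33.3%, against 29.2%). All 9 passed in both libraries, a rule under which 13.7% of all genes were higher and 19.7% lower. The median log2 ratio of the 9 was -0.08, equal to that of all genes with a ratio. The median came to -0.30 with DESeq2 size factors and to 3.43 on the ribosomal protein scale. Summed over the family there were 101 counts after TGF-beta and 182 in untreated cells, a log2 ratio of -0.51 (-0.88 to -0.16).

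The 3 lower receptors were FZD8, FZD7 and FZD3. FZD8 had 9 counts after TGF-beta and 37 in untreated cells, 15.9 and 51.9 CPM, a log2 ratio of -1.70 (-2.94 to -0.63). FZD7, a receptor often studied in carcinomas, had 7 against 27 (-1.61, -3.06 to -0.38). FZD3, known for its part in planar cell polarity and axon growth, had 14 against 45 (-1.35, -2.33 to -0.46). Their intervals lay wholly below equality. FZD1 was near equality at 26 against 25 (0.39, -0.46 to 1.24), as was FZD2 at 12 against 16 (-0.08, -1.29 to 1.09), while FZD5 had 9 against 11 and FZD10 had 6 against 11. FZD9 had 11 against 5 (1.47, -0.17 to 3.35) and FZD4 had 7 against 4 (1.14, -0.83 to 3.36), both past 2-fold with intervals that include equality. FZD4's leading exon block overlaps PRSS23 exons on the opposite strand.

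The LRP5 and LRP6 co-receptors, whose phosphorylated tails recruit AXIN, pointed apart. LRP5 had 14 counts after TGF-beta and 6 in untreated cells, a log2 ratio of 1.56 (0.09 to 3.22). LRP6 had 2 against 5 (-0.99, -4.38 to 1.62). The intervals of the pair overlap, so a different response of LRP5 and LRP6 was not shown. DKK1, a secreted inhibitor that binds LRP5 and LRP6, had 3 counts against 15 and a log2 ratio of -1.99 (-4.42 to -0.16). DKK3, a divergent family member not known to act on these co-receptors in the same way, had 12 against 8 (0.92, -0.49 to 2.42).

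ZNRF3 and RNF43 are paralogous ligases that clear FZD receptors from the membrane, and R-spondins act by blocking them. ZNRF3 (hg19 chromosome 22, 29279580 to 29453475, plus strand) had 5193 CPM after TGF-beta and 461 CPM in untreated cells, a log2 ratio of 3.49 (3.33 to 3.66), or 11.3-fold. It was number 22 among all genes by count after TGF-beta and number 187 in untreated cells, and it held 85.1% and 33.8% of all counts of the Wnt genes. RNF43 had 2 counts against 3, too few for a ratio.

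The exon entries qualify the ZNRF3 value. Exon 1 of the 9 exons of its leading transcript carried 2931 expected counts after TGF-beta and 323 in untreated cells, that is 99.9% and 98.2% of the gene's exon counts. Exons 2 to 6 held 0 in both libraries. Outside exon 1 there were 3 counts after TGF-beta, in exons 7 and 8, and 6 in untreated cells, all in exon 9, a log2 ratio of -0.66 (-3.29 to 1.56). The ZNRF3 difference was thus counted in its first exon, and the rest of the gene gave no detectable difference at this depth. Where the kit's primers lie was not analysed here, so it is unknown whether exon 1 is the segment the kit targets, and shares by exon cannot be read as transcript structure.

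**Figure D3:**
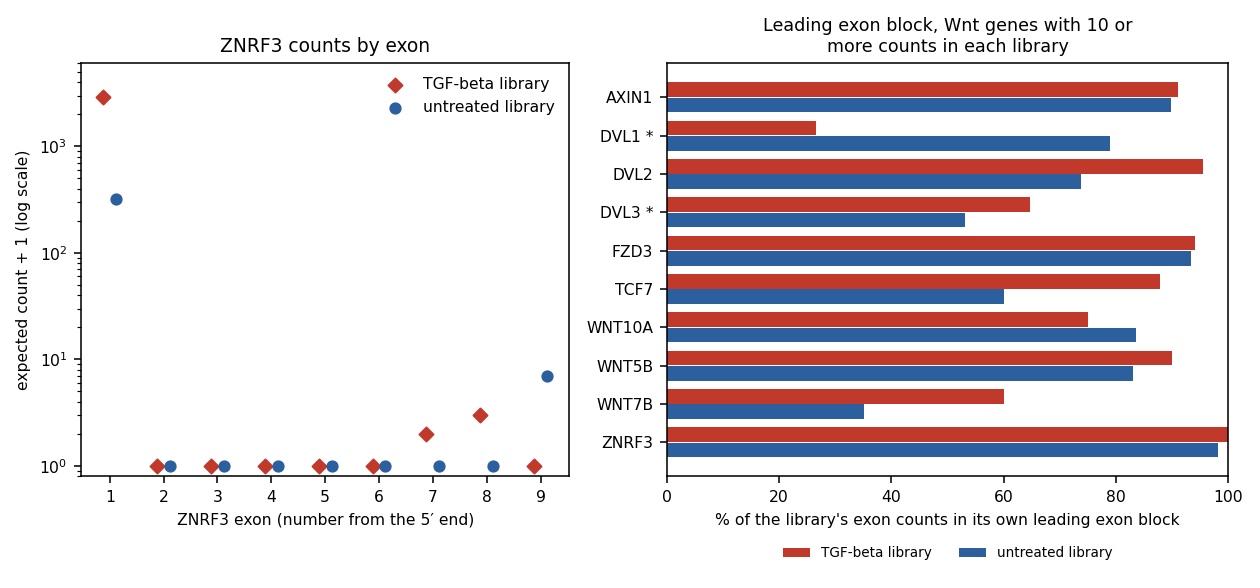
Left, expected counts plus 1 (log scale) of ZNRF3 by exon in the TGF-beta (diamonds) and untreated (circles) libraries, with 2931 and 323 counts in exon 1. Right, the share of each library's exon counts in the exon block that leads in that library, for 10 Wnt genes with at least 10 counts in both libraries and more than 1 exon block (bars); stars mark DVL1 and DVL3, whose leading block differed between the libraries.

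Among the cytoplasmic transducers the largest difference was that of CTNNB1, which encodes beta-catenin, the effector of the canonical pathway. CTNNB1 had 5 counts after TGF-beta and 46 in untreated cells, 8.85 and 64.5 CPM, and a log2 ratio of -2.87 (-4.56 to -1.54). It was lower in its leading exon, the one printed above, with 3.74 expected counts against 33.9. It was also lower outside that exon, where 1 count stood against 12. Beside CTNNB1, ribosomal protein genes had a median log2 ratio of -3.23. The housekeeping genes GAPDH, ACTB and EEF1A1 had -4.25, -3.43 and -3.42. The part of RNA quality in the CTNNB1 value was not tested. Of the 8 transducer genes 4 were at least 2-fold lower (50%, against 29.2% of all genes) and 2 higher (25%, against 21.3%). Among the 6 that passed in both libraries 3 were lower (50%, against 19.7% of all genes under that rule) and 1 higher (16.7%, against 13.7%). The median log2 ratio of the 8 was -0.61, which moved to -0.83 with DESeq2 size factors and to 2.90 on the ribosomal protein scale. Summed, the 8 had 180 counts after TGF-beta and 285 in untreated cells, a log2 ratio of -0.33 (-0.60 to -0.05). Upper-quartile scaling moves every log2 ratio up by 0.079, after which this interval includes equality. GSK3B, the kinase that phosphorylates beta-catenin for destruction, had 5 against 21 (-1.73, -3.50 to -0.29), and APC, a scaffold of the same complex, had 1 against 6 (-2.25, -7.77 to 0.79).

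AXIN1, the limiting scaffold of the destruction complex, was measured more deeply than any Wnt gene other than ZNRF3. It had 101 counts after TGF-beta and 143 in untreated cells, and a log2 ratio of -0.17 (-0.55 to 0.21). Its interval is the narrowest after that of ZNRF3. AXIN2, a direct beta-catenin target widely used as a readout of pathway activity, had 5 against 1 (2.66, -0.50 to 8.22). The counts of AXIN2 are too few to tell whether that readout differed.

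The 3 Dishevelled genes, which relay the signal from FZD to AXIN, did not move together. DVL2 had 33 counts after TGF-beta and 10 in untreated cells, a log2 ratio of 2.06 (1.0 to 3.24). DVL1 had 13 against 34 (-1.05, -2.10 to -0.09), and DVL3 had 17 against 24 (-0.16, -1.15 to 0.79). The intervals of DVL1 and DVL2 do not overlap. Outside the exon block with most counts DVL1 had 11 counts after TGF-beta against 7 and DVL2 had 2 against 3. For DVL2 these were too few for a ratio, and the blocks were themselves chosen from these counts. The kit also reads only a short segment per targeted gene. The remaining exons therefore cannot tell whether the contrast of these genes held outside those blocks. DVL1 passed 2-fold by little and came to -0.97 with upper-quartile scaling.

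Among TCF/LEF factors, TCF7L2, the main partner of beta-catenin in many epithelia, had 11 counts after TGF-beta and 0 in untreated cells. It passed the filter through the TGF-beta library alone and had to be higher. Against the floor of 3 counts in untreated cells it was at least 4.63-fold higher, and its counting interval began at a log2 ratio of 1.66. Of the 2 TCF/LEF genes that passed in both libraries 0 were past 2-fold. Of the TCF7L2 counts 90.9% lay in the block of the exon printed above. TCF7, first described in T cells, had 17 against 13 (0.72, -0.41 to 1.89). TCF7L1, which acts mostly as a repressor, had 4 against 7 (-0.47, -2.69 to 1.50), and LEF1, a factor often linked to EMT, had 3 in each library.

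The share of a gene's counts that lay in 1 exon varied widely. Overlapping exons of a gene were merged into blocks, and the block with the most counts in both libraries together is the leading block. Over the 35 Wnt genes with a ratio the leading block held a median of 73.0% of the exon counts, beside 74.7% over 13930 genes. FZD1, FZD2, FZD7, FZD8, FZD9 and FZD10 have a single block, so their share is 100% by structure. Of the 29 genes with more than 1 block, 1 (ZNRF3) had over 95% in 1 block, which is 3.45%, against 18.3% of 12108 genes. The lowest share among the 35 was 30.0%, for TCF7L1.

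In several lower genes the counts missing from the TGF-beta library came from 1 block. DVL1 had 78.9% of its untreated counts but 13.3% of its TGF-beta counts in a block of 132 bases, and outside that block it had 11 counts after TGF-beta against 7 (0.99, -0.51 to 2.59). GSK3B had 60.9% of its untreated counts and 0% of its TGF-beta counts in the leading block, and outside it 5 counts against 8 (-0.34, -2.30 to 1.45). DKK1 likewise had 59.3% and 0%, with 3 against 6 outside. For these 3 genes the lower value is seen in the leading block, which was itself chosen from these counts, and no difference was detectable in the remaining exons. Among 10 Wnt genes with at least 10 counts in each library and more than 1 block, the leading block was the same in both libraries for 8, or 80.0%, against 81.3% of 2787 genes.

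Counts of some Wnt genes were assigned by the authors' processing to transcripts with no coding sequence. DVL2 had 100% of its exon counts in such transcripts, WNT5B 86.9%, AXIN1 83.7%, GSK3B 77.5%, WNT7A 59.8% and APC 54.0%. These were 6 of the 23 Wnt genes with both kinds of transcript, or 26.1%, against 33.5% of 8416 genes. For AXIN1 the leading block (chromosome 16, 339440 to 343718, minus strand) holds an exon of 4279 bases of a transcript without coding sequence. The division of a gene's counts over its transcripts is that of the deposited estimates.

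The lower Wnt genes had a lower median GC content than the others, although FZD7 (65.8%), FZD8 (70.9%) and DVL1 (65.9%) among them were GC-rich. The 13 higher Wnt genes had a median GC content of 63.5% in the longest coding sequence of the gene (GENCODE 29) and the 8 lower ones 50.9%, while the 14 between had 63.8%. Wnt genes were GC-rich as a set, with a median of 63.6% over the 35, against 55.7% over 11323 genes with a ratio and a coding sequence. Over those genes the median log2 ratio by GC content, in 5 classes of near-equal size, went from -0.66 in the class of lowest GC content to 0.14 in the class of highest. Of the 6 Wnt genes in the lowest 2 classes 4 were at least 2-fold lower and 1 higher. These 6 were APC, FZD3, GSK3B, LRP6, CTNNB1 and FZD4. Of all genes in those 2 classes 38.9% and 37.8% were lower and 18.7% and 17.7% higher. Of the 26 Wnt genes in the highest 2 classes 3 were lower and 10 higher. Of all genes there 25.9% and 20.7% were lower and 21.2% and 23.1% higher. The median of all genes in the same class was also subtracted, an alternative chosen after seeing the data. Then 12 Wnt genes were higher, against 23.7% of all genes so treated, and 7 lower, against 27.6%. The median log2 ratio of the Wnt genes was 0.33. The part of base composition in single genes was not tested.

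**Figure D4:**
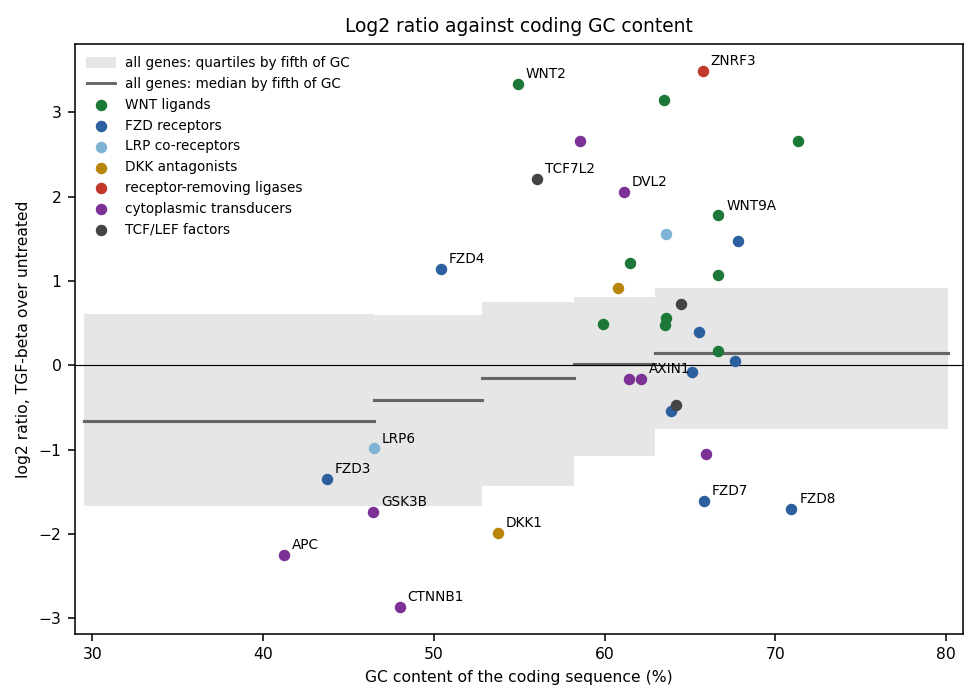
Log2 ratio (TGF-beta over untreated) against GC content of the coding sequence in percent for the 35 Wnt genes with a ratio (points coloured by role), over the median (line) and quartiles (grey band) of all genes in each of the 5 classes of GC content. The line climbs from -0.66 to 0.14, FZD7 and FZD8 lie below the band at high GC content, and ZNRF3 and WNT2 lie above it.

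The wider pathway was followed in 86 other genes that make, modify or respond to the Wnt signal. Of 66 with a ratio 14 were at least 2-fold higher, or 21.2% against 21.3% of all genes, and 15 lower, or 22.7% against 29.2%. Their median log2 ratio was 0.16, and it was below 0 with DESeq2 size factors and with total counts. Their summed counts were level, at 1503 after TGF-beta and 1927 in untreated cells, a log2 ratio of -0.02 (-0.12 to 0.08). The secretion genes PORCN and WLS, needed to modify and export WNT proteins, had 3 counts against 7 and 0 against 2. Of the secreted and membrane antagonists 5 of 10 were higher (50%, against 21.3% of all genes) and 0 lower (against 29.2%). Among the 9 that passed in both libraries 4 were higher (44.4%, against 13.7% of all genes under that rule). The counting interval lay wholly above equality for 0 of these 9. NOTUM passed through the TGF-beta library alone. NOTUM, a deacylase that inactivates WNT proteins, had 18 counts against 3 (2.92, 1.14 to 5.33), and SFRP4, a secreted Frizzled-like antagonist, had 14 against 7 (1.34, -0.07 to 2.89).

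R-spondin receptors and polarity genes gave a few higher values. LGR6, an R-spondin receptor, had 24 counts after TGF-beta against 11 (1.46, 0.38 to 2.64). Of the 4 genes of its list with a ratio 2 were higher and 1 lower. The lower one passed the filter through the untreated library alone and had to be lower. Of the 3 that passed in both libraries 2 were higher and 0 lower, beside 13.7% and 19.7% of all genes under that rule. CELSR3, an adhesion cadherin of planar cell polarity, had 119 against 18, a log2 ratio of 3.06 (2.34 to 3.86). In the list of other receptors and planar polarity genes CELSR3 was the only one of 13 at least 2-fold higher, or 7.69%, against 21.3% of all genes. Lower were 2, or 15.4%, against 29.2%. Both passed the filter through the untreated library alone and had to be lower, and their intervals include equality. Among the 9 that passed in both libraries 1 was higher and 0 lower, beside 13.7% and 19.7% of all genes under that rule. The median of the 13 was 0.75.

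Among the remaining destruction complex genes 6 of 12 with a ratio were at least 2-fold lower, or 50%, against 29.2% of all genes. Of the 12, 2 were higher, or 16.7%, against 21.3%. Their median was -0.90. Counting intervals lay wholly above equality for 3 (25%, against 10.9% of all genes) and wholly below it for 3 (25%, against 18.4%). Among the 9 that passed the filter in both libraries 5 were lower (55.6%, against 19.7% of all genes under that rule) and 0 higher (against 13.7%). The ribosomal protein median beside them was -3.23. GSK3A, the second GSK3 isoform, had 3 counts after TGF-beta and 38 in untreated cells (-3.33, -5.67 to -1.67). CSNK1A1, the kinase that primes beta-catenin, had 4 against 45 (-3.16, -5.09 to -1.70), and CSNK1D, a related casein kinase, had 10 against 61 (-2.27, -3.40 to -1.30). NKD1 and NKD2, which bind Dishevelled and dampen the signal, were the 2 higher genes. Both passed the filter through the TGF-beta library alone and had to be higher. They are named after their values were seen, with 8 counts against 1 for NKD1 (3.34, 0.44 to 8.81) and 9 against 1 for NKD2 (3.51, 0.65 to 8.96).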

How the data were processed

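AmpliSeq Transcriptome libraries were sequenced from 2 samples, 1 per group. The deposited table holds not normalized expected counts, which are estimates and often not whole, for genes, with further entries that divide a gene over transcripts and exons. Coordinates are hg19, a build that the submitters' processing notes name beside DESeq without a role. No aligner, counting program or strand setting is given in the sources used here. Reads from genes that overlap on opposite strands therefore cannot be separated.

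Expected counts of gene entries were rounded (0.5 upwards) and scaled with TMM in edgeR 4.0.16 (R 4.3.3), with factors of 0.946 for TGF-beta and 1.06 for untreated. Ratios, exact intervals and tallies used scipy 1.17.1 and no test was made. The ratio code was tested on simulated data. No ratio was given to genes at or under 3 counts in each library, which left 14067 of the 15401 genes that passed the filter. GC content came from GENCODE 29 transcripts. Items withheld from the text are not reported here. The genes named were all Wnt genes with at least 20 summed counts, sparser ones where a role needed them, and from each fixed list of other pathway genes up to 3 per direction, at least 2-fold different with at least 20 summed counts. Members and lists were chosen with earlier results of these data known. Alternatives covered scaling (DESeq2 1.42.0 size factors among them), filters, rounding, a pseudocount and exon concentration.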

Additional observations from a re-analysis of the deposited data

How the results depend on the processing

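Each gene count and median was recomputed under other settings. The filters of 1 CPM, of more than 3 counts and of none gave the values reported, because genes at or under 3 counts in each library had no ratio under any of them. At 20 CPM the number of Wnt genes at least 2-fold higher fell to 5 and that of other pathway genes to 9. With at least 5 CPM in both libraries, added after seeing the data, 8 Wnt genes were higher and 9 other pathway genes lower. The median of the other pathway genes was below 0 with DESeq2 size factors, at -0.0633, and with total counts, at -0.0036. Scaling on the summed ribosomal protein genes, also added, gave 34 higher and 0 lower Wnt genes with a median log2 ratio of 3.99, and 59 higher and 1 lower other pathway genes with a median of 3.67. Without ZNRF3, 12 Wnt genes were higher and 8 lower, with a median of 0.43. ZNRF3 itself had a log2 ratio of 3.27 with DESeq2 size factors. Among single Wnt genes FZD5, WNT10A and FZD2, all within 2-fold, changed sign or reached 0 under another scaling or without rounding, and no gene past 2-fold changed sign with DESeq2 size factors, total counts, upper-quartile scaling, log2(CPM + 1) or unrounded counts. No paired analysis was possible because each group has 1 library, and for the same reason no library could be left out. Depth limits most Wnt genes: 26 of the 47 had fewer than 20 counts in the 2 libraries together.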

Other observations

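The 15 genes listed as Wnt targets outside the pathway summed to 115 counts after TGF-beta and 448 in untreated cells. That is a log2 ratio of -1.63 (-1.93 to -1.33), and the largest untreated counts were those of FOSL1, MYC and CCND1. Of 12 with a ratio 4 were at least 2-fold lower (33.3%, against 29.2% of all genes) and 1 higher (8.33%, against 21.3%). Their median was -0.66, beside -0.08 over all genes with a ratio. Among the 10 that passed the filter in both libraries 3 were lower (30%, against 19.7% of all genes under that rule) and 1 higher (10%, against 13.7%). FOSL1, a subunit of the AP-1 factor, had 1 count after TGF-beta and 145 in untreated cells (-6.84, -12.2 to -4.34). FOSL1 passed the filter through the untreated library alone and had to be lower. CCND1, which encodes cyclin D1, had 8 against 81 (-3.00, -4.26 to -1.96), and MYC, a growth-promoting transcription factor, had 12 against 95 (-2.65, -3.65 to -1.78). The higher gene was WISP1, a secreted matricellular protein, with 23 against 12 (1.27, 0.21 to 2.42). Ribosomal protein genes had a median of -3.23 beside them, and the part of RNA quality in these values was not tested.

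Nuclear cofactors of beta-catenin and TCF went both ways, with 3 of 14 at least 2-fold higher (21.4%, against 21.3% of all genes) and 2 lower (14.3%, against 29.2%). Among the 10 that passed the filter in both libraries 2 were higher (20%, against 13.7% of all genes under that rule) and 1 lower (10%, against 19.7%). SMARCA4, the ATPase of a chromatin remodelling complex, had 65 counts after TGF-beta and 18 in untreated cells (2.19, 1.42 to 3.03), and TLE3, a co-repressor of TCF factors, had 61 against 36 (1.10, 0.48 to 1.73). AES, a short member of the same co-repressor family, had 0 against 56, at least 14.8-fold lower with the floor of 3 counts after TGF-beta, a log2 ratio of -3.89, with a counting interval that ends nearer to equality, at -3.54. AES passed the filter through the untreated library alone and had to be lower. CTBP2, another co-repressor, had 6 against 38 (-2.33, -3.86 to -1.07).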
